A study of Mus musculus with 2 samples.

Results

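Collagens are the trimeric proteins that give extracellular matrix its tensile strength, and 33 collagen genes were followed here in mouse liver exposed to thioacetamide, a hepatotoxin used to produce fibrosis in rodents. They were taken by name: array probes were kept where the gene name in the scanner files was a listed symbol or its synonym. This found 32 of the 33 genes, with 44 probes on 53 spots, among 22601 named genes in all; Col6a3 was not matched and is not analysed here. By the assembly their products form, 10 of the 32 are fibrillar collagens, 7 are basement membrane collagens and 15 are other collagens. A probe was well above background, in the scanner software's call, in at least 1 channel for 25 of the genes, and in all 4 channels for 16. The remaining 7 genes were Col2a1, Col11a1, Col4a3, Col9a3, Col13a1, Col17a1 and Col19a1, and no ratio is given for them.

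Total liver RNA came from mice on a C57BL/6 background, either wild-type or AID transgenic, where AID is activation-induced cytidine deaminase. The thioacetamide had been given in drinking water for 6 months. There were 2 two-colour arrays, 1 per genotype, each with the treated liver in Cy5 and an untreated liver of that genotype in Cy3, so that a ratio is treated over untreated. Which promoter drives the transgene, how old and of which sex the mice were, and whether a channel held 1 animal or a pool is not stated in the labels. With 1 array per genotype and no dye swap there is no replicate, no test was possible, and a dye effect cannot be told apart from the treatment within an array. Values are therefore described by size, and a count of genes means those at or beyond 2-fold (1 on the log2 scale).

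Of the 43020 gene spots, between 53.9% and 68.8% were well above background in a channel. Sex-linked transcripts set the treated wild-type liver apart from the other livers. In it the Y-linked genes Ddx3y and Eif2s3y were not well above background and were at least 17.6-fold and 32.1-fold lower than in the untreated wild-type liver. Xist, the RNA of X inactivation, had a treated over untreated log2 ratio of 2.67 in wild-type, with an SD of 1.08 between 2 probes. It was not well above background in the untreated wild-type liver. Between the untreated livers AID transgenic minus wild-type was 0.10 for Ddx3y and -0.06 for Eif2s3y. This bears on the wild-type ratio, the difference between ratios and the comparison of treated livers, and its part in the collagen values was not tested. Of 10 hepatocyte markers 9 were measured, and all 9, Alb and Ttr among them, were well above background in every channel.

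Fibrillar collagens assemble into the cross-banded fibres that build scar tissue, with types I and III as its bulk and type V as a minor chain that seeds fibrils. Type IV collagens form the sheet-like network of basement membranes, and types XV and XVIII are attached to it. Other collagens bead along cells, anchor epithelia or coat fibrils. In injured liver, stellate cells and portal fibroblasts are the known main sources of the fibrillar types. In bulk RNA, fewer cells of a type and less RNA per cell cannot be told apart.

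The stretch before the transcription start is shown for the genes that reached 2-fold and have a RefSeq promoter window; Col1a1 is not in that table. Each line holds the 120 bases upstream of the RefSeq start in build GRCm38.p6, read 5′ to 3′ along the gene, with capitals for 3 promoter motifs found on either strand: the CCAAT box, the GC box GGGCGG, and the TATA box motif TATAAA. Col1a2 lies at chr6:4505498-4505617 (plus strand), Col3a1 at chr1:45311418-45311537 (plus strand), Col5a3 at chr9:20815068-20815187 (minus strand), Col27a1 at chr4:63215292-63215411 (plus strand) and Col7a1 at chr9:108953466-108953585 (plus strand).
Col1a2: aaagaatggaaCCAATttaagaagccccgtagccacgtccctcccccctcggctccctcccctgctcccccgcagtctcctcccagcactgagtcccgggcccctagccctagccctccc
Col3a1: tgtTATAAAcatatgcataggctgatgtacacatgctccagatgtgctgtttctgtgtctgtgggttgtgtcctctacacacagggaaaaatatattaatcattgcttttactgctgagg
Col5a3: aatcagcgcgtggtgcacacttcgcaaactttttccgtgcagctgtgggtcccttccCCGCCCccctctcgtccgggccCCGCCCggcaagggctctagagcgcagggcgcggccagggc
Col27a1: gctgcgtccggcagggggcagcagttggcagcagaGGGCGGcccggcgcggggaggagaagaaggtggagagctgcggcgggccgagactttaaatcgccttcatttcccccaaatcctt
Col7a1: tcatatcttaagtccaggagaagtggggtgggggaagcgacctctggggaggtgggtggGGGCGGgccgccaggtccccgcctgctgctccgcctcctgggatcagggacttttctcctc

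Col1a2 and Col3a1, whose values resembled each other, had different motifs in these stretches. Col1a2 carried CCAAT from 109 to 105 bases before its start, and Col3a1 carried TATAAA from 117 to 112 bases before its start and no GGGCGG. Col5a3, Col27a1 and Col7a1 each had GGGCGG or its complement. Over whole windows of 250 bases before and 50 after the start, 26 of the 33 genes had 29 windows. In its whole window Col1a2 held GGGCGG too, at 2 sites, and Col5a3 and Col7a1 held 1 CCAAT each. CCAAT was in 11 of the 29, against 37.4% of all 32851 windows; GGGCGG was in 18, against 35.7%, and TATAAA in 4, against 13.6%. A match describes the letters only. The starts of Col4a1 and Col4a2, which encode the chains of the commonest type IV trimer, lay 21 bases apart on opposite strands.

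Col1a1, Col1a2, Col3a1 and Col7a1 were higher, and Col5a3 and Col27a1 lower, in wild-type liver after treatment. Of 24 measured collagen genes, 4 were at least 2-fold higher and 2 at least 2-fold lower. Over all 16529 genes measured, 1.86% were higher and 1.65% lower by that rule. The collagen median was 0.12 on the log2 scale, beside 0.03 for all genes, and with median centring in place of loess it was 0.29 beside 0.35, below that of all genes. By class, 3 of 8 fibrillar genes were higher and 2 lower, 0 of 6 basement membrane genes reached 2-fold either way, and 1 of 10 others was higher. In AID transgenic mice, 1 of 25 measured collagen genes was at least 2-fold higher and 0 were lower, with 1.21% and 0.954% of 16562 genes as background. The collagen median was -0.19 there, beside 0.03 for all genes, and 0.02 beside 0.34 with median centring.

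**Figure D1:**
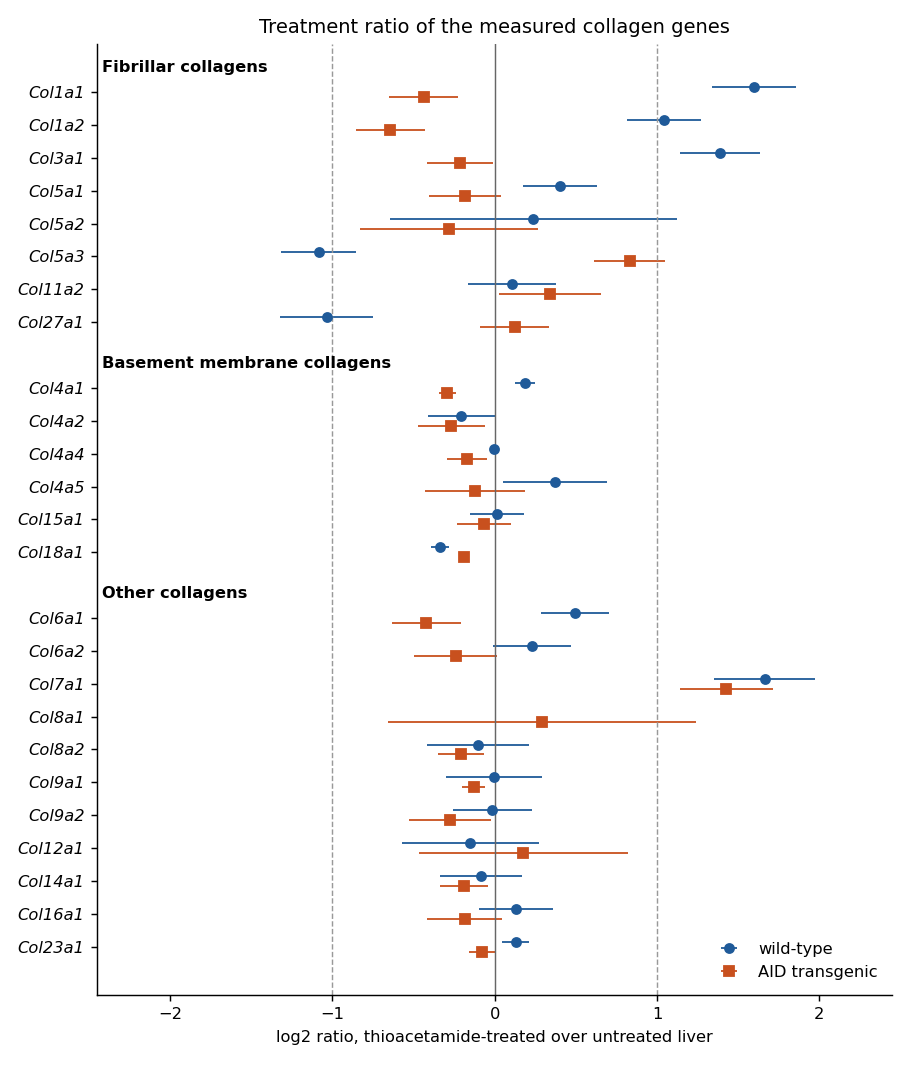
Log2 ratio of treated over untreated liver for each measured collagen gene, in wild-type (circles) and AID transgenic mice (squares); bars are the scanner software's error, the SD between spots or the SD between probes, and dashed lines mark 2-fold. Col1a1, Col1a2 and Col3a1 lie right of 1 in wild-type and left of 0 in AID transgenic mice (right of 0 there with median centring), Col5a3 lies the opposite way, and Col7a1 lies right of 1 in both.

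The genes at 2-fold were each measured by 1 probe of 60 bases, placed on mm9 by the scanner files at chr11:94813115-94813174 for Col1a1, chr6:4490619-4490678 for Col1a2, chr1:45405589-45405648 for Col3a1, chr9:108886861-108886920 for Col7a1 and chr4:62995485-62995544 for Col27a1 (plus strand), and chr9:20574592-20574651 for Col5a3 (minus strand).

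Col1a1 encodes the chain present in 2 copies in type I collagen. Its normalized log2 level was 8.54 in the untreated and 10.13 in the treated wild-type liver, and 9.41 in the untreated and 8.98 in the treated AID transgenic liver. The treated wild-type liver was thus the highest and the untreated wild-type liver the lowest of the 4, with both AID transgenic livers between them. The log2 ratio was 1.60 ± 0.26 in wild-type, a 3.02-fold difference, and -0.44 ± 0.21 in AID transgenic mice, where median centring gave 0.17. Unless an SD is named, ± gives the error that the scanner software assigned to a spot, which holds no spread between mice.

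Col1a2, the partner chain of type I collagen, had levels of 9.61 and 10.65 in the untreated and treated wild-type livers and 10.44 and 9.80 in the AID transgenic livers. The treated wild-type and the untreated AID transgenic liver lay close together at the top. Its ratios were 1.04 ± 0.23 and -0.64 ± 0.21, the latter 0.02 with median centring. Col3a1, the homotrimeric type III collagen that co-assembles with type I, had levels of 9.12 and 10.51 in wild-type and 9.74 and 9.53 in AID transgenic livers. Its ratios were 1.39 ± 0.25, which is 2.61-fold, and -0.21 ± 0.21, the latter 0.42 with median centring. The 4 livers had the same order for Col1a1, Col1a2 and Col3a1, and the AID transgenic livers differed least for Col3a1, by about the error of the spot.

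**Figure D2:**
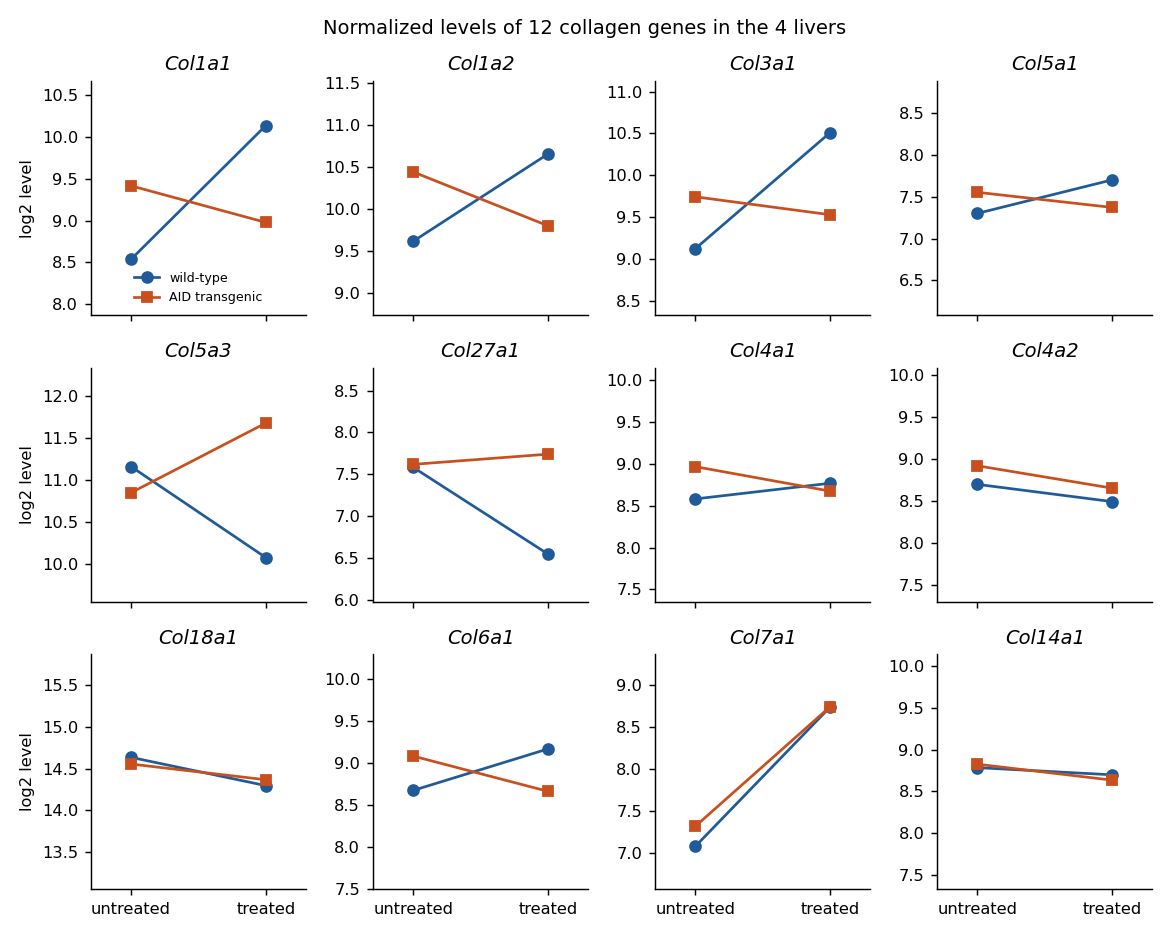
Normalized log2 level of collagen genes in the untreated and treated liver of wild-type (circles) and AID transgenic mice (squares), 1 array per genotype, with the same axis span in each panel. The lines cross for Col1a1, Col1a2, Col3a1 and Col5a3, and also for Col5a1, Col4a1, Col6a1, Col14a1 and Col18a1. They meet at the treated end for Col7a1, whose treated level was 8.74 in both genotypes.

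The type V chains had unlike ratios. Col5a1, a chain of the common type V trimer, had untreated and treated levels of 7.30 and 7.70 in wild-type and 7.55 and 7.37 in AID transgenic livers. Its ratios were 0.40 ± 0.23 in wild-type and -0.18 ± 0.22 in AID transgenic mice (0.13 with median centring). Col5a2, its partner, was well above background in the treated livers only. Its levels were 6.06 and 6.30 in wild-type and 6.51 and 6.23 in AID transgenic livers, with ratios of 0.24 ± 0.89 and -0.28 ± 0.55, both smaller than their errors. With the processed signals of the scanner software these were 1.70 and -1.11, and median centring turned the wild-type sign (-0.11). Col5a3, the remaining type V chain, had levels of 11.16 in the untreated and 10.08 in the treated wild-type liver, and 10.85 and 11.68 in the AID transgenic livers. The treated AID transgenic liver was the highest and the treated wild-type liver the lowest. Its ratios were -1.09 ± 0.23 and 0.83 ± 0.22; with median centring they were -0.41 and 1.51.

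Col27a1, a fibrillar collagen known from cartilage, was the other collagen gene at 2-fold lower in treated wild-type liver. Its levels were 7.58 untreated and 6.55 treated in wild-type, and 7.62 and 7.74 in AID transgenic mice, so that 3 livers were alike and the treated wild-type liver was low. The ratios were -1.03 ± 0.29 and 0.12 ± 0.21. The first was -0.84 with median centring and -1.93 with the processed signals. Col11a2, a minor fibrillar collagen, had levels of 6.85 and 6.95 in wild-type and 6.67 and 7.01 in AID transgenic livers and ratios of 0.11 ± 0.27 and 0.34 ± 0.31.

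Col7a1, the anchoring fibril collagen that ties epithelial basement membranes to the stroma, was the only collagen gene at least 2-fold higher in both treated livers with loess. Its levels were 7.07 and 8.74 in wild-type and 7.31 and 8.74 in AID transgenic mice. Both treated livers lay above both untreated ones, and the treated levels were equal to 2 decimals. The ratios were 1.66 ± 0.31, which is 3.17-fold, and 1.43 ± 0.29, which is 2.69-fold. They differed by -0.24 ± 0.42, less than the error. With the processed signals the ratios were 2.49 in wild-type and 2.12 in AID transgenic mice. In the scanned signals the Col7a1 spot read 83.1 in Cy3 and 606 in Cy5 on the wild-type array and 87.7 and 547 on the AID transgenic array, over local backgrounds with medians of 24 to 56. Both arrays have the treated liver in Cy5, so a dye effect of this probe would appear alike on both and cannot be told apart from the treatment.

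Basement membrane collagens had ratios between -0.34 and 0.37 in wild-type and between -0.29 and -0.06 in AID transgenic mice. Col4a1 was the best measured, with 10 spots on each array, and had levels of 8.58 and 8.77 in wild-type and 8.97 and 8.67 in AID transgenic livers. Its ratio was 0.19 with an SD of 0.06 between spots in wild-type and -0.29 with an SD of 0.05 in AID transgenic mice, and median centring gave 0.77 and 0.27. Col4a2, the partner whose start is next to that of Col4a1, had levels of 8.70 and 8.49 in wild-type and 8.92 and 8.65 in AID transgenic livers. Its ratios were -0.21 ± 0.21 and -0.27 ± 0.21, and both were above 0 with median centring (0.36 and 0.30). With loess the wild-type ratios of the partners had opposite signs, each smaller than the scanner software's error, 0.21 for either gene. Their AID transgenic ratios were similar. Col4a5, an X-linked chain of the specialised type IV network, was not well above background in untreated wild-type liver. Its wild-type ratio was 0.37 ± 0.32, which is 1.29-fold. Its levels were 6.45 and 6.82 in wild-type and 6.77 and 6.64 in AID transgenic livers, and its AID transgenic ratio was -0.12 ± 0.31. Col4a4, of the same network, had levels of 6.49 and 6.48 in wild-type and 6.66 and 6.49 in AID transgenic livers and ratios of -0.01 ± 0.02 and -0.17 ± 0.12 (SD between 3 probes). A probe of Col4a4 was not well above background in any channel, and the scanner software's errors averaged 0.88 and 0.93. Col18a1, whose C-terminal fragment is endostatin and which hepatocytes are known to make, had scanned signals of 14984 to 32511, unsaturated on every spot. Its levels were 14.63 and 14.30 in wild-type and 14.55 and 14.37 in AID transgenic livers. Its 2 probes gave -0.34 with an SD of 0.05 in wild-type and -0.19 with an SD of 0.01 in AID transgenic mice; both were above 0 with median centring, at 0.44 and 0.56.

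Among the other collagens besides Col7a1, no gene reached 2-fold on either array with loess and an offset of 50. Col6a1, a chain of the beaded microfilaments around cells, had levels of 8.67 and 9.17 in wild-type and 9.08 and 8.66 in AID transgenic mice, which is the crossing seen for type I collagen at a smaller size. Its ratios were 0.50 ± 0.21 and -0.42 ± 0.21 (with median centring it was past 2-fold in wild-type and 0.15 in AID transgenic mice). Its partner Col6a2 had levels of 6.91 and 7.13 in wild-type and 7.08 and 6.84 in AID transgenic livers and ratios of 0.23 ± 0.24 and -0.24 ± 0.25. Col14a1, which coats collagen fibrils, had levels of 8.78 and 8.70 in wild-type and 8.83 and 8.63 in AID transgenic livers. Its ratios were -0.09 with an SD of 0.25 between 2 probes in wild-type and -0.19 with an SD of 0.15 in AID transgenic mice (0.38 and 0.24 with median centring). Col8a1, a short-chain collagen of vessel walls, was well above background in the treated AID transgenic liver alone. Its levels were 6.17 and 6.14 in wild-type and 6.07 and 6.36 in AID transgenic livers. Its AID transgenic ratio was 0.29 ± 0.95, and it passed 2-fold with an offset of 0 (1.02) and with the processed signals (1.41). Col8a2, of the same type, had levels of 6.38 and 6.28 in wild-type and 6.37 and 6.16 in AID transgenic livers. The fibril-associated Col9a1 had 6.37 and 6.36 in wild-type and 6.40 and 6.27 in AID transgenic livers, and its partner Col9a2 had 6.92 and 6.90 in wild-type and 7.14 and 6.87 in AID transgenic livers. Col12a1, also fibril-associated, had 6.44 and 6.29 in wild-type and 6.13 and 6.31 in AID transgenic livers. For Col16a1 the levels were 7.04 and 7.17 in wild-type and 7.14 and 6.96 in AID transgenic livers, and for the transmembrane collagen Col23a1 6.05 and 6.18 in wild-type and 6.20 and 6.12 in AID transgenic livers. Ratios of Col8a2, Col9a1, Col9a2, Col12a1, Col16a1 and Col23a1 lay between -0.28 and 0.18 on both arrays. They were -0.10 ± 0.31 and -0.21 ± 0.14 for Col8a2, -0.00 ± 0.30 and -0.13 ± 0.07 for Col9a1 and -0.01 ± 0.25 and -0.28 ± 0.25 for Col9a2. They were -0.15 ± 0.42 and 0.18 ± 0.65 for Col12a1, 0.13 ± 0.23 and -0.19 ± 0.23 for Col16a1 and 0.13 ± 0.08 and -0.08 ± 0.08 for Col23a1, with the SD between probes as error where a gene had several. Other settings moved some of them: Col8a2 in AID transgenic mice was -1.59 with the processed signals, and Col12a1 there ran from -0.29 to 0.61. The SDs of Col9a1 and Col23a1 include probes that were not well above background in any channel. The scanner software's errors averaged 0.78 and 0.74 for Col9a1, 1.26 and 1.31 for Col23a1, and 0.53 and 0.75 for Col8a2.

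In the part of a collagen transcript that encodes the triple helix, glycine recurs at a fixed spacing, with a pair of other residues between. Each probe was read in the frame with the most glycine codons (GGN), and the annotated reading frame was not used. In that frame 5 of the 44 probes had at least 3 glycine codons in that register and no stop codon. A triple-helix probe below means a probe with this pattern. The 4 shown belong to genes whose probes could be compared with others of the same gene. They are 60 bases long, with glycine codons in capitals, and their positions in build mm9, as the scanner files give them, are chr15:55347733-55347792 for Col14a1 (plus strand), chr4:47283786-47283845 for Col15a1 (plus strand), chr4:129756457-129756516 for Col16a1 (plus strand) and chr1:82515563-82515622 for Col4a4 (minus strand).
Col14a1: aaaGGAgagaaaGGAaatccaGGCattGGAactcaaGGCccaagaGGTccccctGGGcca
Col15a1: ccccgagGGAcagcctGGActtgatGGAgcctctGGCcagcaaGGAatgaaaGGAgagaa
Col16a1: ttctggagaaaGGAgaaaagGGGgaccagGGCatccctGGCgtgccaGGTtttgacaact
Col4a4: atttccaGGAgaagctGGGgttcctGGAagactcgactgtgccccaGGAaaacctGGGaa

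The probe of Col15a1 has 6 glycine codons in unbroken register and that of Col16a1 has 5, while those of Col14a1 and Col4a4 hold a break, with 4 and 3 codons as the longest run. For Col15a1, a basement membrane collagen of vessels and muscle, this probe was well above background in both treated livers, and the 2 probes further 3′ were not in any channel. Its ratios were 0.09 ± 0.40 and 0.13 ± 0.46, and the gene, with levels of 6.26 and 6.27 in wild-type and 6.31 and 6.24 in AID transgenic livers, had 0.01 ± 0.17 and -0.06 ± 0.17 over the 3 probes. For Col16a1, a fibril-associated collagen, it was the reverse: the triple-helix probe was not well above background in any channel. The 2 probes further 3′ were in all 4, with ratios of 0.13 ± 0.21 and 0.36 ± 0.29 in wild-type and -0.45 ± 0.21 and -0.04 ± 0.34 in AID transgenic mice. The gene values of Col15a1 and Col16a1 average over the dim probes too. The triple-helix probe of Col14a1 had -0.26 ± 0.23 and -0.30 ± 0.24 against 0.09 ± 0.20 and -0.08 ± 0.20 for its 3′ probe.

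In the difference of the ratios, AID transgenic minus wild-type, 3 of 25 collagen genes were at least 2-fold lower and 2 at least 2-fold higher, and all 5 were fibrillar. Over 16972 genes, 1.04% were lower and 0.931% higher by that rule. The collagen median was -0.21, beside 0.00 for all genes, and 19 of the 25 were below 0, as were 8578 of the 16972. Col1a1 had -2.03 ± 0.34, Col1a2 -1.68 ± 0.31 and Col3a1 -1.60 ± 0.32, while Col5a3 had 1.92 ± 0.32 and Col27a1 1.16 ± 0.36. Col6a1 came just short at -0.92 ± 0.30. Of the 25 differences, 10 were below and 3 above 0 by more than their error, taken as the SD between probes or spots where a gene had several. Col4a4 (-0.16), Col23a1 (-0.21) and Col18a1 (0.15) were counted by such an SD. Each of these values was smaller than the gene's mean scanner error on either array. The count beyond the error was not made over all genes, so it has no background. A dye effect that a probe shows alike on both arrays cancels in the difference of ratios, and the sex-linked difference of the treated wild-type liver does not.

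**Figure D3:**
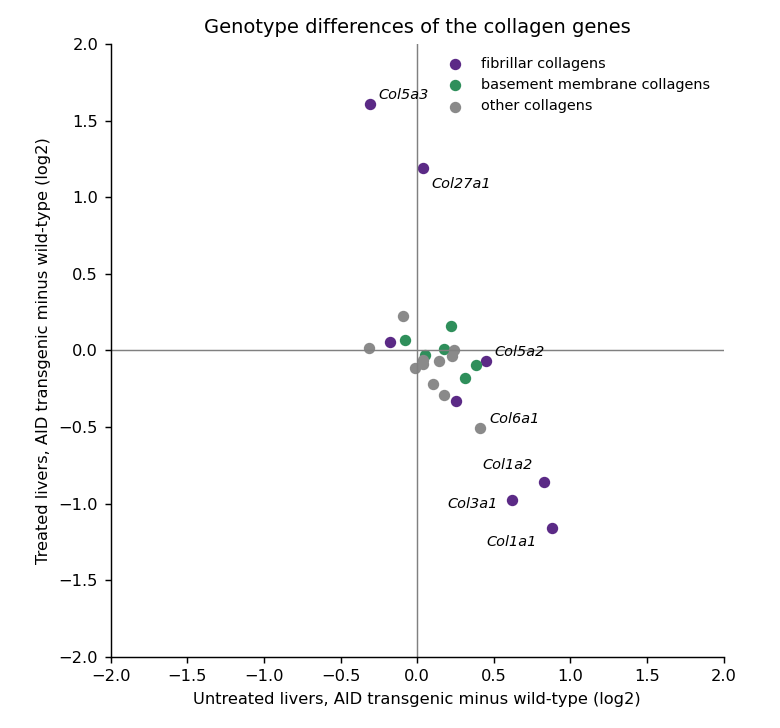
AID transgenic minus wild-type log2 level of the 25 collagen genes measured on an array, of which 21 were measured in the untreated livers, for untreated (horizontal) and treated livers (vertical). Col1a1, Col1a2, Col3a1 and Col6a1 lie in the lower right, higher in the untreated and lower in the treated AID transgenic liver, while Col5a3 and Col27a1 differ mainly along the vertical axis.

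The type I and III genes differed between the genotypes in the untreated livers and, the other way, in the treated ones. In the untreated livers, AID transgenic minus wild-type was 0.88 for Col1a1, 0.83 for Col1a2 and 0.62 for Col3a1. None of 21 collagen genes measured there reached 2-fold in either direction, with 0.31% of 14187 genes higher and 0.296% lower, but 16 of the 21 were above 0, as were 6948 of the 14187. Their median was 0.18, beside 0.00 for all genes. In the treated livers the values were -1.16 for Col1a1, -0.86 for Col1a2 and -0.98 for Col3a1, and the collagen median was -0.07 beside -0.01. Of 25 genes there, 2 were at least 2-fold higher and 1 lower, with 0.738% and 0.75% of 16944 genes as background. Over the 7 alternative normalizations and filters the Col1a1 difference ranged from 0.70 to 1.11 without treatment and from -1.33 to -1.16 after it.

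Col5a3 and Col27a1 differed mainly in the treated livers. AID transgenic minus wild-type was 1.61 for Col5a3 after treatment, against -0.31 without it, and 1.19 against 0.04 for Col27a1. Both are genes whose level in the treated wild-type liver was the lowest of the 4, the liver with the distinct sex-linked transcripts. Col1a1, Col1a2, Col3a1 and Col6a1 had their highest level of the 4 in that same liver. Comparisons of levels between the arrays, unlike the difference of ratios, have no error estimate here.

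Genes of collagen maturation and turnover were measured beside the chains, from lists chosen with earlier results of these data known. Of 18 genes for hydroxylation, glycosylation and folding, 0 reached 2-fold on either array, with medians of -0.02 in wild-type and -0.14 in AID transgenic mice. Serpinh1, the collagen-specific chaperone HSP47, was the only gene of that list at 2-fold in the difference, at -1.38 ± 0.31. Its levels were 8.99 and 9.64 in wild-type and 9.46 and 8.73 in AID transgenic mice, the crossing seen for type I collagen. Of 11 measured genes for procollagen cleavage and crosslinking, 0 reached 2-fold on an array and 1 in the difference: Pcolce, which enhances removal of the C-propeptide, had 0.53 ± 0.21 in wild-type and -0.51 ± 0.21 in AID transgenic mice, a difference of -1.05 ± 0.30. None of 9 collagen receptor genes reached 2-fold on an array or in the difference. Of 10 collagen degradation genes, 1 did so in the difference: the gelatinase gene Mmp2, with 0.78 ± 0.25, -0.53 ± 0.28 and -1.31 ± 0.38. Among 11 collagen family genes outside the list, 3 were measured in wild-type and 4 in AID transgenic mice, and 0 reached 2-fold.

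**Figure D4:**
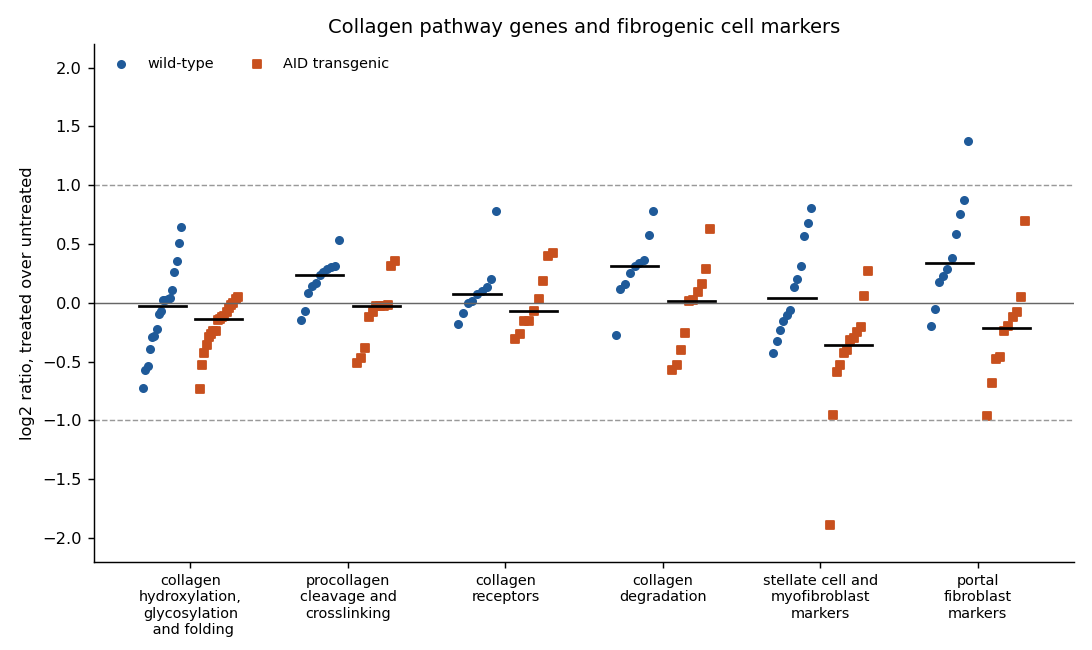
Log2 ratio of treated over untreated liver for the measured genes of collagen maturation, receptors and degradation and for markers of fibrogenic cells, in wild-type (circles) and AID transgenic mice (squares); each point is a gene, bars are list medians and dashed lines mark 2-fold. List medians lie lower in AID transgenic than in wild-type mice in all panels, and Acta2 is the point at -1.89.

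Marker lists of several liver cell types, those known to make fibrillar collagen among them, also differed between the genotypes. All 12 stellate cell and myofibroblast markers were well above background in every channel, and their summed level, taken as linear units, was 10432 and 11282 in untreated and treated wild-type liver and 12809 and 8719 in the AID transgenic livers. Their wild-type ratios were above 0 for 6 and below 0 for 6, with a median of 0.04. In AID transgenic mice 2 were above and 10 below 0, with a median of -0.36. In the difference of ratios 12 of 12 were below 0, as were 8578 of all 16972 genes, and 3 were at least 2-fold lower, as were 177 of all genes: Acta2, the smooth muscle actin of myofibroblasts, at -1.56 ± 0.08 from the SD between spots, Lrat, of retinoid storage, at -1.33 ± 0.31, and Cygb at -1.15 ± 0.30. For Acta2 the AID transgenic liver was higher by 1.41 when untreated and at -0.15 against wild-type when treated. The 10 portal fibroblast markers summed to 3363 and 6709 in wild-type and 5123 and 6521 in AID transgenic livers, with 9 of 10 below 0 in the difference and Mfap4 at -1.83 ± 0.34. Gas6, at least 2-fold higher in treated wild-type liver (1.38), was the brightest of them, and the other 9 summed to 1475 and 1807 in wild-type and 2086 and 1617 in AID transgenic livers, where 8 of 10 ratios were below 0. Cholangiocyte markers had the most genes at least 2-fold lower in the difference of any list, 4 of 10, with 8 of 10 below 0 and a median of -0.50. Krt19 had -1.46 ± 0.37, Cd24a -1.47 ± 0.36, Tspan8 -1.29 ± 0.45 and Spp1 -1.14 ± 0.31. Tspan8 was not well above background in untreated wild-type liver. Krt7, Epcam and Muc1, also below 0, were not well above background in either AID transgenic liver. The sums of the 10 cholangiocyte markers were 1334 and 1920 in wild-type and 1510 and 1299 in AID transgenic livers. For 10 macrophage markers the sums were 17869 and 22280 in wild-type and 22553 and 48025 in AID transgenic livers. In AID transgenic mice 5 of these 10 were at least 2-fold higher after treatment, against 1.21% of all genes. For 10 endothelial markers the sums were 22765 and 19828 in wild-type and 22264 and 22530 in AID transgenic livers. Of 9 hepatocyte markers, 1 was at least 2-fold lower in wild-type and 2 in AID transgenic mice, against 1.65% and 0.954% of all genes. The part of these cell types in the collagen values was not tested.

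**Figure D5:**
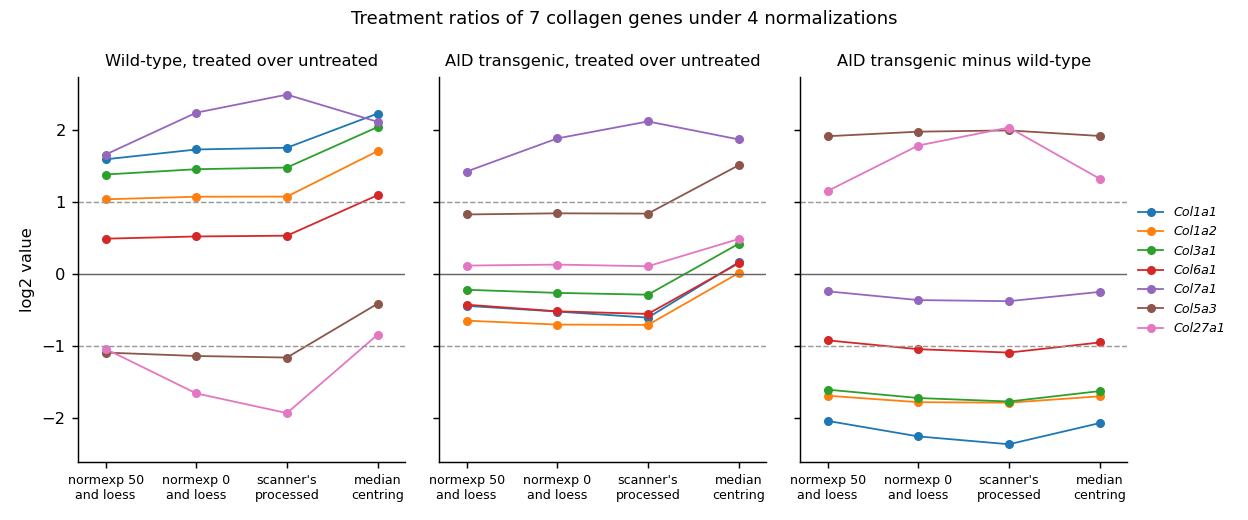
Log2 ratios of collagen genes on each array and their difference under the normalizations tried; dashed lines mark 2-fold. Median centring shifts both ratios up, which brings the AID transgenic ratios of Col1a1, Col1a2, Col3a1 and Col6a1 above 0, while the difference of Col1a1 stays between -2.36 and -2.03.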

How the data were processed

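The authors deposited the scanner output of both arrays. The mean signal and background median of each spot are unnormalized intensity values per the file headers, and processed signals are intensities that the scanner software had background-subtracted and dye-normalized. The deposited log10 ratio is red over green processed signal. Its deposited error is a score that the software's error model assigned per the file headers, rescaled here to log2. The deposited flags are 0 or 1. The deposited value table equalled it on all 44397 features of each array. The file headers name Feature Extraction 10.7.3.1, whereas the submitters' processing notes name 10.5.1.1. Mean signals were corrected with normexp (offset 50) and normalized by loess within arrays in R 4.3.3 with limma 3.58.1, with weight 0 for control and outlier spots; Aquantile normalization served levels and comparisons between arrays. The steps were tested on simulated data. Spots were averaged by probe and probes by gene. Names came from the files, of which 25924 probes matched a RefSeq symbol, 3993 a unique synonym and 9512 neither. A gene was measured where a probe was well above background in at least 1 channel entering. Tables were made in Python 3.11.15.

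An "at least" fold sets the bright level against the dim level or, if higher, that channel's smallest level well above background. Both arrays share a slide and scan, so no batch could be set as a block. The members, lists and motifs were chosen with earlier results of these data known. All measured collagen genes were given; of collagen pathway lists, genes at 2-fold on an array or in the difference of ratios were named, at most 4 a list. Cell markers were outside that rule: lists were summarised, and single markers were named after their values were seen. Sequences are from the scanner files and RefSeq tables. The alternatives were a normexp offset of 0, the processed signals, median centring, every channel above background, the brightest probe, and other or no normalization between arrays.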

Additional observations from a re-analysis of the deposited data

Results flagged for a closer look

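For 4 collagen genes the treatment ratio lay on opposite sides of 0 in the genotypes, each by more than its error, with a difference of at least 2-fold. With median centring the AID transgenic ratios of Col1a1 (0.17), Col1a2 (0.02) and Col3a1 (0.42) were above 0 as in wild-type, and Col5a3 alone stayed opposite. The median of all genes was then 0.34 in AID transgenic mice, above Col1a1 and Col1a2 there, and 0.35 in wild-type. AID transgenic minus wild-type was -2.03 for Col1a1, -1.68 for Col1a2, -1.60 for Col3a1 and 1.92 for Col5a3. With 1 array per genotype these differences were not tested. Their treated wild-type liver also differed in sex-linked transcripts.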

How the results depend on the processing

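The 12 collagen values at 2-fold on an array or in the difference kept their direction under the 5 alternatives for ratios, and stayed at 2-fold except for Col5a3 and Col27a1 in wild-type with median centring (-0.41 and -0.84), which left 0 genes lower there. In AID transgenic mice 2 genes were at least 2-fold higher with a normexp offset of 0, with the processed signals and with median centring. Of all 16562 genes, 613, 1501 and 1349 were higher with these settings. With the processed signals 2 collagen genes (Col5a2 and Col8a2) were at least 2-fold lower, as were 469 of all genes. In the difference 6 genes were at least 2-fold lower with offset 0 and 9 with the processed signals. Of all 16972 genes, 500 and 938 were lower with these settings. With the processed signals the collagen median was -0.57, beside -0.01 for all genes. The cause was not tested. Median centring moved the median of all genes to 0.35 in wild-type and 0.34 in AID transgenic mice, and turned 18 of 74 signs of single genes, none of them at 2-fold. Without normalization between arrays the median of all genes was -0.13 in the untreated and -0.11 in the treated comparison. Within their error lay 9 of 25 AID transgenic and 12 of 24 wild-type ratios, or 15 and 14 by the scanner software's error alone, which replaces the SD between probes or spots. These counts were not made over all genes. No paired analysis was possible because each genotype has 1 array. No replicate could be left out.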
